A study of Homo sapiens with 18 samples.

Results

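Collagen VI is described here by the mRNAs of its 3 classical chains, COL6A1, COL6A2 and COL6A3, in MDA-MB-231 cells grown in 3D with high or low levels of the Notch ligand Jagged1 (gene JAG1). The 3 genes were taken by symbol from the 21411 genes counted. They were chosen by their mRNA levels in the JAG1 comparisons, which earlier results of these data had shown, so their values there are a description and carry no test. MDA-MB-231 is an established triple-negative breast cancer (TNBC) line. Every culture was kept in Matrigel for 7 days before RNA was isolated, in 6 conditions with 3 biological replicates each, 18 libraries in all. Jag1WT is the unmodified line. For Jag1KO, cells edited at JAG1 with Cas9 were sorted, grown as separate clones and then pooled, so the line descends from few cells. Jag1KO + rescue is Jag1KO carrying a plasmid with the JAG1 cDNA, and Jag1KO + ctrl is Jag1KO carrying the empty plasmid, both kept under drug selection. siCtrl and siJag1 are wild-type cells transfected before seeding with control siRNA and with siRNA against JAG1. No condition contained fibroblasts.

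Collagen VI is a microfibrillar collagen of the pericellular matrix. An α1, an α2 and an α3 chain, the products of COL6A1, COL6A2 and COL6A3, are assembled inside the cell into a heterotrimer, which forms dimers and tetramers that are secreted and joined end to end into beaded microfilaments. The α3 chain is the largest and is needed for assembly, and its carboxyl-terminal fragment, endotrophin, is released after secretion. Fibroblasts are a main source of collagen VI in tissue, and tumor cells can also make it.

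COL6A1 (Entrez gene 1291) lies on the plus strand of chromosome 21 from 45981770 to 46005050, and COL6A2 (Entrez gene 1292) on the same strand from 46098112 to 46132848, 93.1 kb further on (hg38, GENCODE 44). COL6A3 (Entrez gene 1293) lies apart from them on the minus strand of chromosome 2, from 237324003 to 237414328. The start regions of COL6A3 and COL6A2, the chains with the widest ranges between conditions, are printed to show how unlike they are. Each holds 250 bases before and 50 bases after the start in RefSeq (GRCh38.p14, plus strand for COL6A2 at chr21:46097862-46098161, minus strand for COL6A3 at chr2:237414115-237414414). Of the 3 chains, 2 were matched in this set, and COL6A1 was not. Capitals mark matches on either strand to TGGGAA (the core read by the Notch effector RBPJ), GGGCGG (the SP box), TATAAA (the TATA box) and TGACTCA (the AP-1 site).
COL6A3: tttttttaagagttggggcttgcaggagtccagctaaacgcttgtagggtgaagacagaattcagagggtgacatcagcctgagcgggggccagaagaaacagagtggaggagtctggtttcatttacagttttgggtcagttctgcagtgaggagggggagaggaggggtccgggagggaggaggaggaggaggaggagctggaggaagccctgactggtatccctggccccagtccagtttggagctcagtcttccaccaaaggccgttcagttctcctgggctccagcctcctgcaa
COL6A2: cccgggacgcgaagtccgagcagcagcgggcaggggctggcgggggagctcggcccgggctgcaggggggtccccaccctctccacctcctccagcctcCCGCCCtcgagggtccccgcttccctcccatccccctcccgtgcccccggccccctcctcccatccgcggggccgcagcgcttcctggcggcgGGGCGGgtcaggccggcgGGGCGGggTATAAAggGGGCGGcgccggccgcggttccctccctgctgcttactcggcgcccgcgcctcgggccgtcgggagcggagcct
The COL6A2 region had 79.3% G and C, more than 96.7% of the 35116 promoters of the same length. It held 4 matches to GGGCGG, which 45.0% of those promoters have at least once, and 1 match to TATAAA, present in 11.5%. The COL6A3 region had 56.3% G and C, more than 44% of promoters, and held none of the 4 motifs. TGGGAA was absent from both windows and present in 24.0% of all promoters, and TGACTCA was absent from both and present in 4.95%. A match is a string of letters and not a measured binding site.

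The reads assigned to genes numbered 10330581 in the shallowest library, 15168046 at the median and 18327890 in the deepest. Levels are given in CPM, the deposited counts scaled to the authors' TMM-normalized library size. The line's markers VIM (2180 to 4950 CPM), CD44 (396 to 559 CPM) and KRT18 (127 to 162 CPM) were high in every library, and ESR1 (at most 0.136 CPM), PGR (at most 1.77 CPM) and CDH1 (at most 1.16 CPM) were low. EPCAM (5.18 to 8.99 CPM) and ERBB2 (32.5 to 60.0 CPM), which had also been listed as low, were detected in every library. Fibroblast markers were scarce: of 9 measured, 3 exceeded 1 CPM in any library (COL1A1, PDGFRB and ACTA2). Their sum was 5.93 to 10.2 CPM in Jag1WT, 5.22 to 8.73 in Jag1KO, 7.50 to 11.4 in Jag1KO + rescue, 6.59 to 7.43 in Jag1KO + ctrl, 6.72 to 11.4 in siCtrl and 3.91 to 7.79 in siJag1. The defining fibroblast genes DCN, LUM, COL1A2, FAP and THY1 stayed at or below 0.273 CPM. Some replicates stood apart in proliferation, read as the mean log2(CPM + 1) of 94 cell cycle genes. Jag1KO replicate 1 had 4.09 where replicates 2 and 3 had 5.56 and 5.68, Jag1KO + ctrl replicate 3 had 4.38 where the others had 5.74 and 6.10, and siJag1 replicate 2 had 6.08 where the others had 4.29 and 4.39. Fold changes of the chains without each of these 3 libraries are given beside the comparisons that use it.

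JAG1, the gene the design changes, was measured at 433, 585 and 522 CPM in Jag1WT and at 116, 205 and 149 CPM in Jag1KO. It was at 534, 657 and 646 CPM in Jag1KO + rescue, where reads from the plasmid's cDNA are included, and at 110, 134 and 147 CPM in Jag1KO + ctrl. In siCtrl it was at 441, 626 and 531 CPM, and in siJag1 at 167, 203 and 131 CPM. The libraries therefore form a high and a low set with a wide gap between them, and Jag1KO kept 30.5% and siJag1 31.3% of the JAG1 mRNA of their respective controls. An edited gene can still be transcribed, so this remaining mRNA is not a measure of Jagged1 protein.

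COL6A3 had 3 tiers. It was highest where JAG1 was untouched, intermediate in Jag1KO + rescue and siJag1, and lowest in Jag1KO and Jag1KO + ctrl. Jag1WT libraries had 63.1, 73.0 and 83.9 CPM (73.3 ± 10.4, mean ± SD, n = 3 here and below) and siCtrl libraries 80.3, 88.0 and 73.8 CPM (80.7 ± 7.14). These groups overlapped. Jag1KO + rescue libraries had 11.0, 22.5 and 21.0 CPM (18.1 ± 6.26) and siJag1 libraries 22.4, 15.1 and 11.9 CPM (16.5 ± 5.38), and these overlapped as well. Jag1KO libraries had 5.22, 4.79 and 4.87 CPM (4.96 ± 0.228) and Jag1KO + ctrl libraries 3.06, 4.55 and 2.95 CPM (3.52 ± 0.897). The Jag1KO + ctrl libraries all lay below those of Jag1KO, as in 4.04% of the genes tested between these groups. No library of one tier reached the next tier, the narrowest gap being from 5.22 to 11.0 CPM. Even the lowest tier was well above the counting limit, with 193 reads over the Jag1KO group and 176 over the Jag1KO + ctrl group.

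**Figure D1:**
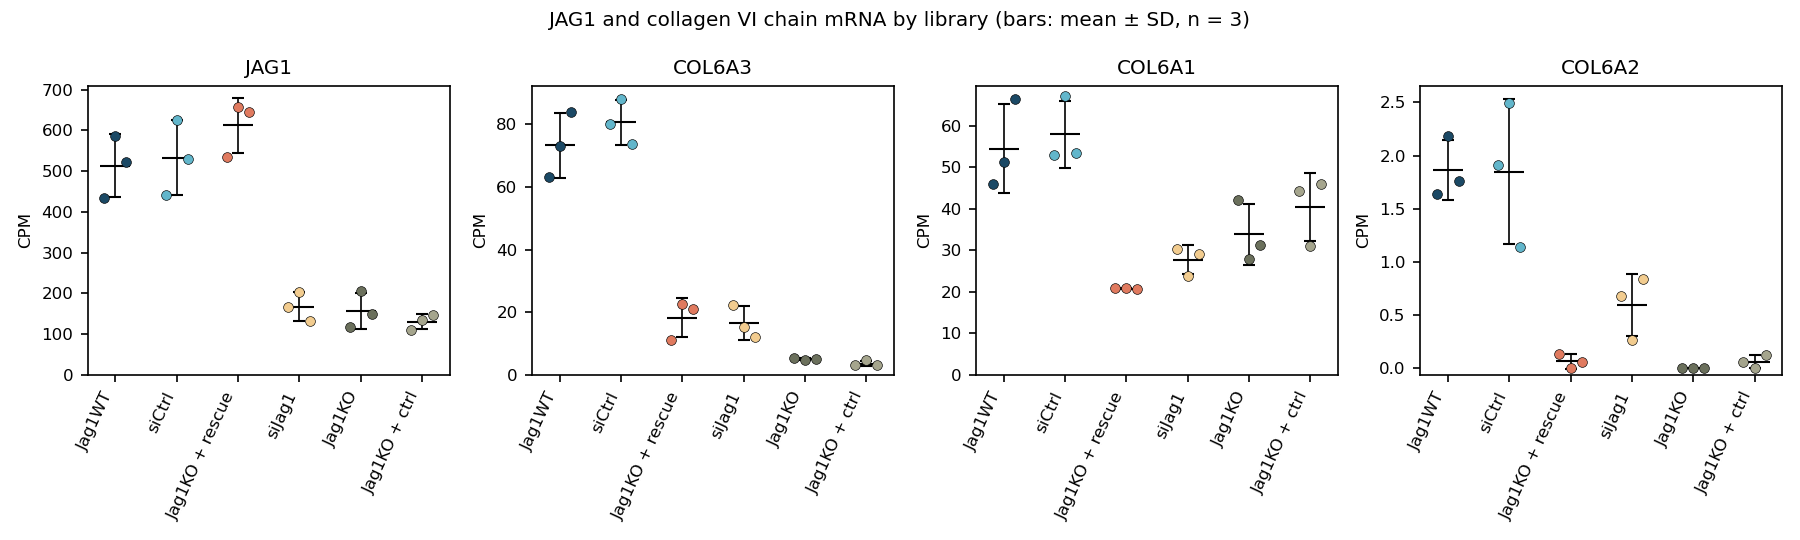
Deposited CPM of JAG1 and the 3 collagen VI chains in each of the 18 libraries, on linear axes that differ between panels; points are libraries and bars the mean ± SD (n = 3). COL6A3 lies between 63.1 and 88.0 CPM in Jag1WT and siCtrl and between 2.95 and 5.22 CPM in Jag1KO and Jag1KO + ctrl, while COL6A1 is lowest in Jag1KO + rescue (20.8 ± 0.176 CPM).

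COL6A1 moved over a narrower range and in another order. Jag1WT libraries had 45.9, 51.2 and 66.4 CPM (54.5 ± 10.6) and siCtrl libraries 52.9, 67.2 and 53.5 CPM (57.9 ± 8.11). The untouched groups were again the highest and overlapped. Jag1KO + ctrl libraries had 44.2, 31.1 and 46.0 CPM (40.4 ± 8.13), and 1 of them exceeded the lowest Jag1WT library. Jag1KO libraries had 42.1, 27.9 and 31.3 CPM (33.8 ± 7.44), and siJag1 libraries had 30.3, 23.7 and 29.2 CPM (27.7 ± 3.50). Jag1KO overlapped with both of its neighbors in this order, Jag1KO + ctrl and siJag1. Jag1KO + rescue was the lowest group and did not overlap with any other, at 20.8, 20.9 and 20.6 CPM (20.8 ± 0.176), a coefficient of variation of 0.848%. The same 3 libraries had a coefficient of variation of 34.5% for COL6A3. They held 305, 296 and 351 reads of COL6A1, for which counting error alone is larger than 0.848%. So small a spread is therefore not a measure of how tightly COL6A1 was held.

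COL6A2 was close to the limit of detection throughout and is given in reads. It had 26, 29 and 27 reads in the Jag1WT libraries (1.86 ± 0.283 CPM) and 27, 37 and 15 in the siCtrl libraries (1.85 ± 0.679 CPM). siJag1 libraries had 12, 5 and 12 reads (0.597 ± 0.294 CPM). Jag1KO had 0 reads in each library, Jag1KO + rescue had 2, 0 and 1, and Jag1KO + ctrl had 1, 0 and 2. A count of 0 allows up to 3 reads, so COL6A2 was at least 7.82-fold higher in Jag1WT than in Jag1KO with this limit taken in each library. It was 3.26-fold higher in siCtrl than in siJag1 (exact 95% counting interval 2.11 to 5.18) and 28.2-fold higher in Jag1WT than in Jag1KO + rescue (9.31 to 140), both intervals covering counting error only. The siCtrl and siJag1 libraries did not overlap, and COL6A2 in Jag1KO + rescue could not be told from that in Jag1KO + ctrl at this depth. The remaining members of the family, COL6A5, COL6A6 and the transcribed pseudogenes COL6A4P1 and COL6A4P2, had 0 to 3 reads over the 3 libraries of any group, and no comparison was made.

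Which chains differ with JAG1 was described in 3 comparisons that share no library, and positive log2 fold changes mean more mRNA in the group with more JAG1. In Jag1WT against Jag1KO the log2 fold change from edgeR was 3.88 for COL6A3 (standard error 0.160), a 14.7-fold difference, and 0.69 for COL6A1 (standard error 0.197), a 1.61-fold difference. Neither chain overlapped between these groups, and neither did COL6A2, where 7.22% of the 12928 genes tested did so in that direction. At an adjusted p below 0.05 and a fold change above 1.5, the call rule used throughout, 2 of the 3 chains (COL6A3 and COL6A2) passed, beside 0.704% of genes. COL6A2 entered this comparison only through its level in Jag1WT. Without Jag1KO replicate 1, the log2 fold changes were 3.91 for COL6A3 and 0.87 for COL6A1, and all 3 chains passed, but 7.29% of genes did so as well. Without any 1 of the other libraries only COL6A3 of the chains passed, beside 0.0624% to 0.164% of genes. Since these are bulk RNA samples, fewer cells that make a chain and less of its mRNA per cell cannot be told apart.

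In siCtrl against siJag1 all 3 chains were higher in siCtrl, by 2.30 for COL6A3 (standard error 0.221, 4.92-fold), 1.07 for COL6A1 (standard error 0.143, 2.10-fold) and 1.66 for COL6A2 (standard error 0.458, 3.17-fold) on the log2 scale. The groups overlapped for none of the chains, and 5.15% of the 12823 genes tested showed the same separation in that direction. COL6A3 was the 1 chain of 3 that passed the call rule, beside 0.0156% of genes, and it did not pass without any 1 siCtrl library or without siJag1 replicate 3, where 0 genes passed in all. COL6A2 entered only through its level in siCtrl. Without siJag1 replicate 2, the library with the high cell cycle mean, the log2 fold changes were 2.24 for COL6A3, 0.97 for COL6A1 and 1.31 for COL6A2.

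In Jag1KO + rescue against Jag1KO + ctrl the chains parted. COL6A3 was 5.13-fold higher with the JAG1 plasmid (log2 fold change 2.36, standard error 0.335) and COL6A1 was 1.96-fold lower (log2 fold change −0.97, standard error 0.183). Neither gene overlapped between the groups, where 16.5% of the 12894 genes tested were separated upward and 16% downward. By edgeR 0 of the 2 chains tested passed the call rule, beside 0.00776% of genes, and COL6A2 was below the filter on low values. DESeq2 called 2 chains, beside 12.2% of genes, and limma 0, beside 0.0155%. EdgeR without Jag1KO + ctrl replicate 3, the library with the low cell cycle mean, also called 2, beside 28.7% of genes, with log2 fold changes of 2.25 for COL6A3 and −0.86 for COL6A1.

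The size of the rescue was set against the loss. JAG1 in Jag1KO + rescue reached 119% of its Jag1WT level, whereas COL6A3 reached 24.7%, COL6A1 38.1% and COL6A2 3.49%. Expressed as a share of the difference between Jag1WT and Jag1KO, the difference between Jag1KO + rescue and Jag1KO + ctrl was 135% for JAG1, 21.4% for COL6A3, 0.262% for COL6A2 and −95.0% for COL6A1, the last because COL6A1 went the other way. COL6A2 had 3 reads over Jag1KO + rescue and 3 over Jag1KO + ctrl. Its 3.49% is therefore imprecise, and the size and sign of its 0.262% are not determined. Directly against Jag1WT, the rescued cells had 4.12-fold less COL6A3 (log2 fold change −2.04, standard error 0.259) and 2.68-fold less COL6A1 (log2 fold change −1.42, standard error 0.160). In this comparison 3 of 3 chains passed the call rule, beside 3.47% of 12843 genes, and COL6A2 entered it only through its level in Jag1WT. None passed without Jag1KO + rescue replicate 3 (0.322% of genes), only COL6A1 without Jag1WT replicate 3 (0.378%), and COL6A1 and COL6A3 without Jag1WT replicate 1 (0.583%) or 2 (0.978%). All 3 were lower in every rescued library than in every Jag1WT library, as were 14.6% of genes.

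The differences between these effects were taken as contrasts over 12 libraries and are likewise given without a test for the chains. Over all genes, 0.545% of 12850 had an adjusted p below 0.05 for the difference between the knockout and plasmid effects (edgeR). The effect of the knockout exceeded that of the plasmid by 1.55 for COL6A3 (standard error 0.375) and by 1.68 for COL6A1 (standard error 0.277) on the log2 scale, whereas the JAG1 effect was smaller by 0.49 (difference −0.49, standard error 0.287). The knockout effect exceeded that of the siRNA by 1.58 for COL6A3 (standard error 0.279), and for COL6A1 the difference was −0.38 (standard error 0.257). The siRNA and plasmid effects on COL6A3 differed by −0.04 (standard error 0.393), while those on COL6A1 differed by 2.06 (standard error 0.229).

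Comparisons between groups meant to have the same JAG1 state were fitted with edgeR (quasi-likelihood test, Benjamini-Hochberg adjustment over all genes). Each uses libraries of the comparisons above, which were in view when the chains were chosen. That choice can favor chains with like levels in both groups. The adjusted p values of the chains are therefore a description and not an independent test. Between siCtrl and Jag1WT, where JAG1 was not changed on purpose, the log2 fold changes were 0.13 for COL6A3 (95% interval −0.15 to 0.40), 0.08 for COL6A1 (−0.27 to 0.43) and −0.00 for COL6A2 (−0.73 to 0.73), and edgeR adjusted p values were 1.000 for each. Of 12847 genes, 0 (0%) were called, 177 had an unadjusted p below 0.05, and DESeq2 and limma called 0 as well. Between Jag1KO + ctrl and Jag1KO, COL6A3 differed by −0.51 (95% interval −1.11 to 0.09, edgeR adjusted p = 0.760) and COL6A1 by 0.24 (−0.27 to 0.75, edgeR adjusted p = 0.800). Without Jag1KO replicate 1 these were −0.47 and 0.44, and without Jag1KO + ctrl replicate 3 they were −0.39 and 0.14 (edgeR adjusted p from 0.416 to 0.744). There edgeR called 0 of 13004 genes (0%) with 756 at an unadjusted p below 0.05, limma called 0, and DESeq2 called 12 higher and 1 lower. Within this limit, no change of a fitted chain was detected with the control siRNA or the empty plasmid, although the intervals allow moderate ones.

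The knockdown and the knockout left JAG1 mRNA at levels that could not be told apart (log2 fold change 0.08, 95% interval −0.48 to 0.63), and COL6A3 was 3.27-fold higher in siJag1 than in Jag1KO (log2 fold change 1.71, standard error 0.260). The chains were chosen with the Jag1KO and siJag1 libraries in view, so this difference is a description and carries no test. With edgeR it missed the call rule, which 9 of 12896 genes (0.0698%) passed. It passed with DESeq2 (0.582% of genes), without a filter on low values (0.153%) and with all 18 libraries in 1 edgeR fit (0.45%). The other 9 of 12 alternatives gave no call. The 3 siJag1 libraries lay above the 3 Jag1KO libraries, as in 5.51% of genes. COL6A2 was at least 2.51-fold higher in siJag1, and COL6A1 differed by −0.31 (95% interval −0.75 to 0.14). Without Jag1KO replicate 1 the log2 fold changes were 1.75 for COL6A3 and −0.11 for COL6A1, and without siJag1 replicate 2 they were 1.76 and −0.21. The siRNA was given to wild-type cells before seeding and the knockout is permanent. These designs differ in cell history as well as in time since JAG1 was lowered. The JAG1 mRNA left in Jag1KO came from an edited gene and that in siJag1 from an unedited one. Similar mRNA therefore does not show a similar level of Jagged1 protein, which was not measured in these files.

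**Figure D2:**
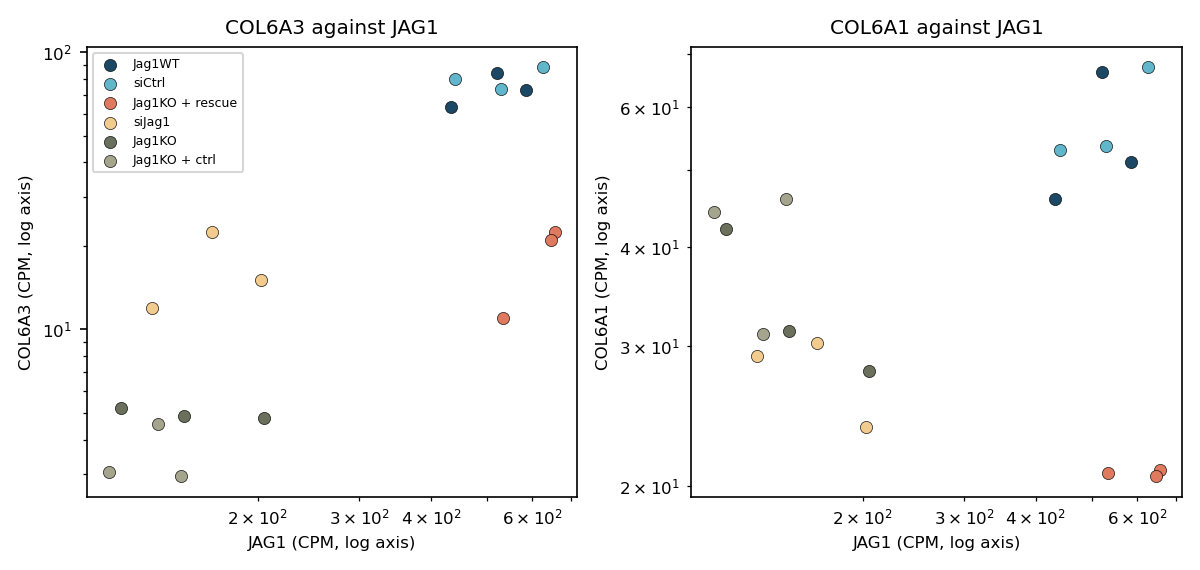
COL6A3 (left) and COL6A1 (right) against JAG1 in the 18 libraries, deposited CPM on log axes, colored by condition. Jag1KO + rescue libraries have as much JAG1 mRNA as Jag1WT and siCtrl (534 to 657 CPM) but 11.0 to 22.5 CPM of COL6A3. For COL6A3, siJag1 lies above Jag1KO at similar JAG1 mRNA, which in Jag1KO comes from an edited gene.

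Because the libraries fall into a high and a low JAG1 set, no correlation was computed across conditions as a test. Within conditions, after the group means were removed, the deviations of JAG1 and COL6A3 had r = 0.336 over 18 libraries (exact permutation within groups, two-sided p = 0.186, adjusted over 5 relations 0.464; Spearman's rho 0.302, permutation p = 0.255, adjusted 0.607). Without the 2 libraries farthest from the median, r was 0.476. JAG1 and COL6A1 had r = −0.262 (permutation p = 0.433, adjusted 0.718; rho −0.185, permutation p = 0.567), and 0.0692 without the 2 farthest. COL6A1 and COL6A3 had r = 0.0667 (permutation p = 0.764, adjusted 0.764; rho 0.131, permutation p = 0.607), and 0.219 without the 2 farthest. No relation of COL6A1 or COL6A3 to JAG1, or between these chains, was thus detectable among replicates of a condition, and COL6A2 was not examined. The cell cycle mean and COL6A1 had r = −0.554 (permutation p = 0.0789, adjusted 0.395; rho −0.536, permutation p = 0.0758, adjusted 0.379), and −0.41 without the 2 farthest. The replicate with the lowest cell cycle mean had the highest COL6A1 level in Jag1WT (66.4 CPM), Jag1KO (42.1 CPM), Jag1KO + ctrl (46.0 CPM) and siJag1 (30.3 CPM). In siCtrl (67.2 CPM) and Jag1KO + rescue (20.9 CPM) the highest COL6A1 level was instead in the replicate with the highest cell cycle mean. The Jag1KO + rescue replicates differed by less than counting error, so their order is not informative. The cell cycle mean and COL6A3 had r = 0.168 (permutation p = 0.574, adjusted 0.718; rho 0.201, permutation p = 0.513), and 0.14 without the 2 farthest.

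The balance of the chains was compared per kb of the gene length behind the deposited RPKM (4225 bp for COL6A1, 4753 bp for COL6A2 and 10860 bp for COL6A3), since a longer mRNA yields more reads. On this scale COL6A1 was the most abundant chain in every library. In Jag1WT the COL6A3 to COL6A1 ratio was 0.535, 0.555 and 0.492 per kb, and in siCtrl 0.590, 0.509 and 0.536. In siJag1 it was 0.288, 0.247 and 0.159, and in Jag1KO + rescue 0.205, 0.418 and 0.397. The ratio thus fell short of the untouched groups in both intermediate conditions. In Jag1KO it was 0.0482, 0.0668 and 0.0605 and in Jag1KO + ctrl 0.0269, 0.0570 and 0.0250. COL6A1 exceeded COL6A3 by 1.90-fold in Jag1WT, 1.84-fold in siCtrl, 3.08-fold in Jag1KO + rescue, 4.46-fold in siJag1, 17.3-fold in Jag1KO and 29.7-fold in Jag1KO + ctrl. The mean log2 ratio was −0.93 ± 0.089 in Jag1WT and −4.11 ± 0.242 in Jag1KO. In Jag1KO + rescue it was −1.62 ± 0.571 against −4.89 ± 0.659 in Jag1KO + ctrl, so the ratio came nearer to that of Jag1WT than either mRNA did, COL6A3 being higher and COL6A1 lower than in Jag1KO + ctrl. COL6A2 was far below both: its ratio to COL6A1 per kb was 0.0304 in Jag1WT, 0.0284 in siCtrl, 0.0191 in siJag1, 0.00278 in Jag1KO + rescue and 0.00132 in Jag1KO + ctrl, and 0 in Jag1KO. These are ratios of mRNA, and chain protein was not measured in these files.

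**Figure D3:**
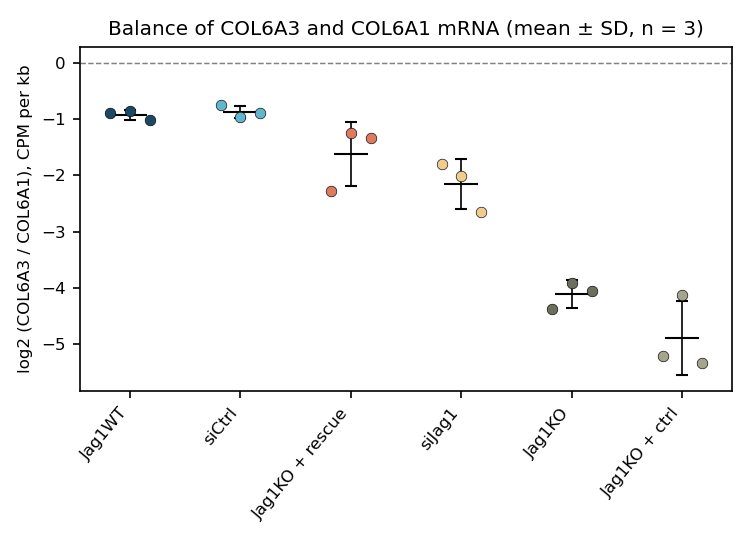
Log2 ratio of COL6A3 to COL6A1 in CPM per kb for each library, with the mean ± SD of the 3 replicates; 0 would be equal mRNA per kb. All 18 points are below 0, and the group means run from −0.88 in siCtrl to −4.89 in Jag1KO + ctrl.

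The genes whose pattern over the 18 libraries was most like that of COL6A3 were sought among 12802 other genes above 1 CPM in at least 9 libraries, by Pearson's r of log2(CPM + 1). They were KRT79 (r = 0.944), a keratin, SLC46A3 (0.909), a lysosomal transporter, KLRC2 (0.908), a receptor of natural killer cells, ATP6V0D2 (0.906), a subunit of the vacuolar proton pump, and ABCA1 (0.906), the cholesterol exporter. KRT79 had 7.42 CPM in Jag1WT, 1.04 in Jag1KO, 3.30 in Jag1KO + rescue, 0.840 in Jag1KO + ctrl, 6.08 in siCtrl and 2.80 in siJag1, the same 3 tiers at a lower level. KLRC2 belongs to a family of near-identical genes, and its counts are uncertain. JAG1 ranked 50th (r = 0.795) and COL6A1 979th (r = 0.478), while COL6A2 had r = 0.882 with COL6A3. The genes most like COL6A1 were PLXNA1 (r = 0.890), a semaphorin receptor, FLYWCH1 (0.877), MLPH (0.877), LGALS3BP (0.876), a secreted glycoprotein that binds galectins, and GAA (0.875), the lysosomal α-glucosidase. PLXNA1 was also lowest in Jag1KO + rescue (166 CPM, against 346 in Jag1WT, 208 in Jag1KO, 246 in Jag1KO + ctrl, 358 in siCtrl and 240 in siJag1). JAG1 ranked 4381st for COL6A1 (r = 0.123). These r values describe 18 libraries that share their conditions and were given no test.

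Receptors that bind collagen VI were measured as the next step of the pathway. This list and those of matrix partners and of biosynthesis were written with earlier results of these data known. The adjusted p values of their genes are therefore not independent tests. In Jag1WT against Jag1KO, 10 of 10 listed receptors were tested, and 1 was higher, 1 lower and 8 were not called. ITGB3, the β3 integrin subunit, was higher in Jag1WT (13.5 against 5.81 CPM, log2 fold change 1.22, standard error 0.201, edgeR adjusted p = 0.0452). CSPG4, the NG2 proteoglycan that binds collagen VI directly, was lower (6.49 against 14.3 CPM, log2 fold change −1.14, standard error 0.154, edgeR adjusted p = 0.0203). CSPG4 had 10.6 CPM in Jag1KO + rescue, 14.5 in Jag1KO + ctrl, 5.61 in siCtrl and 5.98 in siJag1, so the siRNA groups lay near Jag1WT and all the groups derived from Jag1KO were higher. Its log2 fold change was −0.46 with the plasmid (standard error 0.305, edgeR adjusted p = 0.317) and −0.08 with the siRNA (standard error 0.277, edgeR adjusted p = 0.987). Both calls were lost when any 1 library other than Jag1KO replicate 1 was left out, with edgeR adjusted p up to 0.244 for ITGB3 and 0.177 for CSPG4. ITGB1, the β1 subunit and the most abundant receptor mRNA per kb (353 CPM per kb on average), was not called (log2 fold change −0.03, standard error 0.103). The median receptor log2 fold change was 0.28, with −0.01 over all genes. In Jag1WT against Jag1KO, 6 of the 10 had an unadjusted edgeR p below 0.05, beside 1140 of 12928 genes. There edgeR called 0.704% of all genes. DESeq2 called 3 receptors there, beside 1.82% of genes, and limma 2, beside 0.719%. In the other comparisons edgeR called 0 of 10 receptors, with medians of −0.30 for the plasmid and 0.06 for the siRNA. Of all genes it called only 0.00776% for the plasmid and 0.0156% for the siRNA, so a count of 0 says little about the receptors. In each, 2 receptors had an unadjusted p below 0.05, beside 3965 of 12894 genes for the plasmid and 491 of 12823 for the siRNA. DESeq2 called 2 for the plasmid, beside 12.2% of genes, and 0 for the siRNA, beside 0.195%. Limma called 0 in each, beside 0.0155% of genes for the plasmid and 0% for the siRNA.

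Matrix molecules that bind collagen VI or lie beside it were mostly low in these cells. Of 15 listed, 7 passed the filter in Jag1WT and Jag1KO, and edgeR called 0, with 1 at an unadjusted p below 0.05. Their median log2 fold change was 0.38 and 6 of 7 were positive. FN1, the gene of fibronectin and the most abundant per kb (136 CPM per kb), had 1440 CPM in Jag1WT and 1100 in Jag1KO (log2 fold change 0.38, standard error 0.185, edgeR adjusted p = 0.614). With the siRNA, 7 of 7 were positive with a median of 0.43, edgeR called 0 with 4 at an unadjusted p below 0.05, limma called 0 and DESeq2 1. With the plasmid, 9 were tested, 4 were positive, the median was −0.31 and edgeR called 0, with 2 at an unadjusted p below 0.05, limma 0 and DESeq2 1. The shares of all genes at these limits are those given for the receptors.

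The enzymes and carriers that hydroxylate, fold, export and process collagen mostly did not pass the test. Of 22 listed, 20 were tested, and in Jag1WT against Jag1KO 1 was higher, 0 lower and 19 not called, with a median log2 fold change of 0.12. BMP1, a metalloproteinase that cleaves procollagen propeptides, was the 1 higher gene (36.9 against 20.3 CPM, log2 fold change 0.86, standard error 0.128, edgeR adjusted p = 0.0322). Its call was likewise lost without any 1 library other than Jag1KO replicate 1 (edgeR adjusted p up to 0.241). BMP1 had 41.0 CPM in siCtrl and 24.3 in siJag1 (log2 fold change 0.76, standard error 0.119, edgeR adjusted p = 0.268), and 20.9 in Jag1KO + rescue and 21.2 in Jag1KO + ctrl (log2 fold change −0.03, standard error 0.151, edgeR adjusted p = 0.912). P4HB, a subunit of prolyl 4-hydroxylase and the most abundant of the list per kb (510 CPM per kb), differed by 0.14 (standard error 0.158, edgeR adjusted p = 0.844). With the siRNA 16 of 20 were positive (median 0.12) and with the plasmid 9 of 20 (median −0.03). EdgeR called 0 in each, with 2 and 6 genes at an unadjusted p below 0.05, limma called 0 in each and DESeq2 1 and 2. In Jag1WT against Jag1KO, 3 had an unadjusted edgeR p below 0.05, and DESeq2 and limma each called 1. The shares of all genes at these limits are those given for the receptors.

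**Figure D4:**
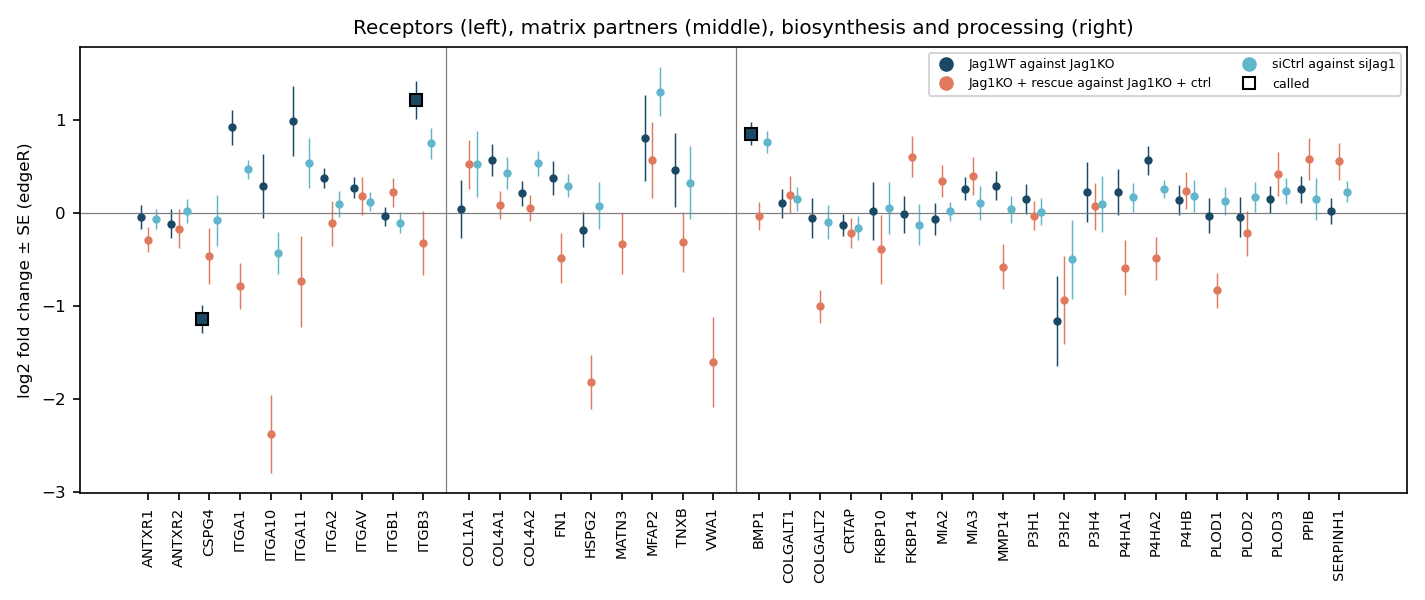
Log2 fold change ± standard error (edgeR) of every tested receptor, matrix partner and biosynthesis gene in the 3 JAG1 comparisons, with positive values for more mRNA where JAG1 was higher; squares mark called genes. ITGB3, CSPG4 and BMP1 are the called genes, all in Jag1WT against Jag1KO.

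Whether genes beside the chains moved with them was read from the 5 nearest tested protein-coding genes on each side. Around COL6A3 edgeR called 0 of 10 neighbors in each of the 3 comparisons, with 3, 6 and 0 of them at an unadjusted p below 0.05 for the knockout, the plasmid and the siRNA. DESeq2 called 0, 2 and 0, and limma 0 in each. The nearest, MLPH, which lies 71.1 kb away and encodes melanophilin, differed by 0.38 (standard error 0.116, edgeR adjusted p = 0.346) in Jag1WT against Jag1KO. Around COL6A1 and COL6A2, 1 of 10 neighbors was called in Jag1WT against Jag1KO, 0 of 9 with the plasmid and 0 of 10 with the siRNA, where 4 and 2 had an unadjusted p below 0.05, DESeq2 called 2 and 1, and limma 0. The called neighbor was COL18A1, the gene of collagen XVIII, which lies 468.1 kb before COL6A1 (log2 fold change 1.85, standard error 0.171, edgeR adjusted p = 0.00509). Its call was lost without Jag1WT replicate 3 (edgeR adjusted p = 0.0543). COL18A1 differed by −0.86 with the plasmid (standard error 0.277, edgeR adjusted p = 0.113) and by 1.22 with the siRNA (standard error 0.151, edgeR adjusted p = 0.125), the same signs as COL6A1 in each comparison. In the order knockout, plasmid and siRNA, 1140 of 12928, 3965 of 12894 and 491 of 12823 genes had an unadjusted edgeR p below 0.05. EdgeR called 0.704%, 0.00776% and 0.0156% of genes in that order, and DESeq2 1.82%, 12.2% and 0.195%.

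**Figure D5:**
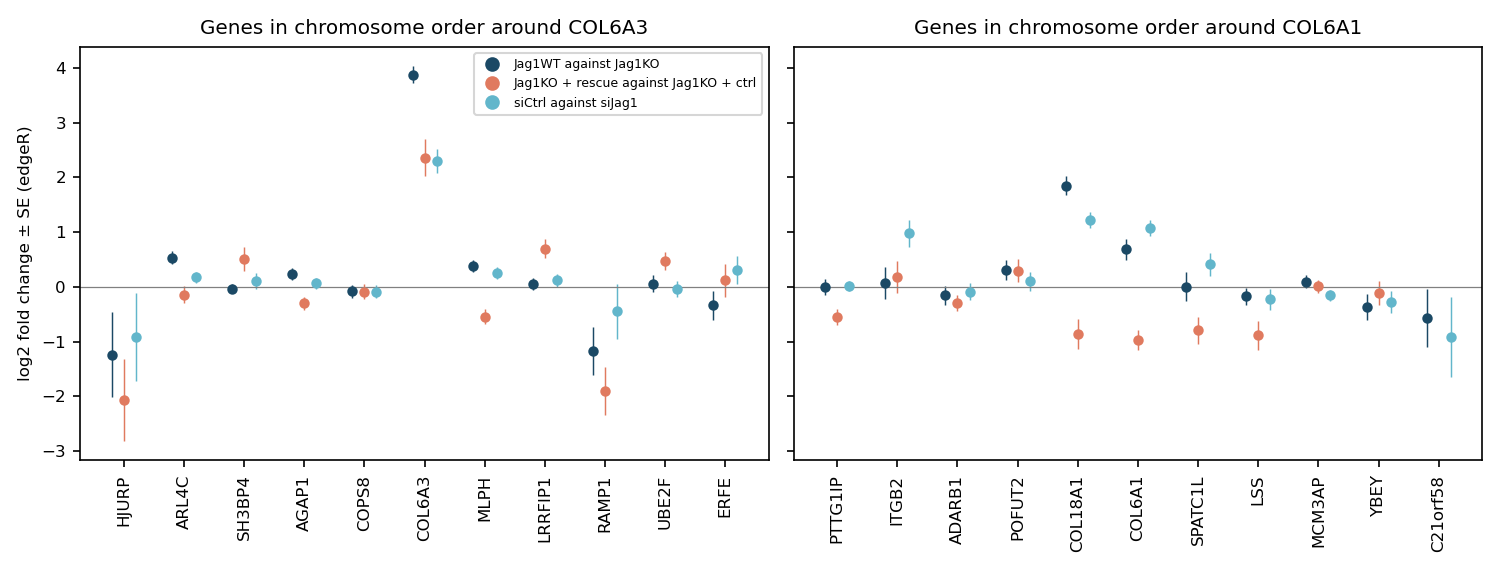
Log2 fold change ± standard error (edgeR) of the 5 nearest tested protein-coding genes on each side, in chromosome order, with COL6A3 (left) and COL6A1 (right) in the middle; the distance between genes is not drawn. COL6A3 stands above its 10 neighbors in all 3 comparisons, and COL6A1 and COL18A1 have the same sign in each.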

How the data were processed

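Per the labels and the methods of the study, stranded mRNA libraries were aligned to hg38 and uniquely mapped reads counted per gene by the authors, with featureCounts and edgeR 3.28.0 named in the submitters' processing notes. The deposited counts are whole and carry no normalization. The deposited CPM were scaled by the authors with TMM and are treated as a normalized signal, since their totals differ between libraries. The deposited RPKM served only for gene lengths, and 3 RPKM columns that matched no label were not used. Genes without a symbol (292) held at most 0.0442% of the reads of a library.

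edgeR 4.0.16 (R 4.3.3, TMM, quasi-likelihood) was fitted to the 6 libraries of each comparison, keeping genes with over 1 CPM in 3 or more of these. A call needed an FDR below 0.05 together with a fold change above 1.5. Standard errors are the log2 fold change over the square root of F, and 95% intervals use the t distribution with the degrees of freedom of the fit. Alternatives were limma 3.58.1 on log2(CPM + 1), DESeq2 1.42.0, DESeq2 size factors, no filter, a replicate block, all 18 libraries in 1 fit, and each library left out. Replicates were labelled as biological, and they differed by 7.75 to 113 times the counting noise. The scripts were tested on simulated data. Of 100 genes changed 2-fold, edgeR recovered 88 for Jag1WT and Jag1KO, 42 for the plasmid comparison and 82 for the siRNA comparison. Of 100 changed 4-fold it recovered 100, 99 and 100, and it called 13, 7 and 10 unchanged genes. The changed genes were drawn from those with a mean above 10 CPM, and each gene was simulated independently. Recovery at lower levels, or where many genes of a replicate deviate together, was not tested. A change of 2-fold can thus be missed, most often with the plasmid. Larger differences in the data also went uncalled, namely COL6A3 at 5.13-fold with the plasmid and JAG1 at 3.20-fold with the siRNA. The chains and gene lists were chosen with earlier results of these data known. Named list genes were those called in at least 1 JAG1 comparison and the most abundant per kb. Likeness was ranked by Pearson's r, and neighbors were taken from GENCODE 44. ITGA1 is named below because the difference between its knockout and plasmid effects had an FDR below 0.05. Lists were written by hand, apart from the cell cycle list, which is shipped with Seurat. Same-numbered libraries deviated together in siCtrl and siJag1 (r = 0.542, 0.522 and 0.263), in Jag1KO + rescue and Jag1WT (0.540, 0.601 and 0.369) and in siCtrl and Jag1WT (0.594, 0.711 and 0.209). The other comparisons were mixed. Jag1WT and Jag1KO had 0.632, 0.667 and −0.0136, and siJag1 and Jag1KO 0.730, 0.512 and −0.469. Jag1KO + rescue and Jag1KO + ctrl had −0.208, 0.345 and 0.241, and Jag1KO + ctrl and Jag1KO −0.356, 0.279 and −0.608. The labels state no pairing, so the main fits were unpaired and the replicate block was an alternative.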

Additional observations from a re-analysis of the deposited data

Results flagged for a closer look

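The difference between the effects of the knockout and of the rescue plasmid had an adjusted p below 0.05 for 2 genes of the collagen VI lists. It was tested over 12 libraries (edgeR quasi-likelihood test, adjusted over all genes), where 0.545% of 12850 genes passed. Both genes lay just below the limit, and the contrast was not repeated with another tool or with libraries left out. For ITGA1, the α1 integrin subunit, the difference was 1.73 on the log2 scale (standard error 0.337, edgeR adjusted p = 0.0486). Its level was 214 CPM in Jag1WT and 112 in Jag1KO, but 91.5 in Jag1KO + rescue and 157 in Jag1KO + ctrl. ITGA1 was called in neither comparison alone (edgeR adjusted p = 0.0902 for the knockout and 0.112 for the plasmid). For BMP1 the difference was 0.91 (standard error 0.176, edgeR adjusted p = 0.0486), the gene being lower in Jag1KO than in Jag1WT and at 20.9 and 21.2 CPM with the JAG1 and the empty plasmid.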

How the results depend on the processing

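The 16 fitted log2 fold changes of the chains kept their sign in 184 of 189 alternatives, and the exceptions were in siCtrl against Jag1WT, where the values were near 0. With limma, COL6A3 moved to 3.63 in Jag1WT against Jag1KO and COL6A2 to 0.82 in siCtrl against siJag1, where leaving out 1 siJag1 library gave 1.31 to 1.97 and, without any 1 siCtrl library, the gene was below the filter. COL6A3 in siJag1 against Jag1KO passed with DESeq2 (1.71), without a filter (1.71) and with all 18 libraries in 1 fit (1.71). Over fits that left out 1 library, the chains called numbered 1 to 3 in Jag1WT against Jag1KO (beside 0.0624% to 7.29% of genes) and 0 to 2 with the plasmid (0% to 28.7%). They numbered 0 to 1 with the siRNA (0% to 0.0315%) and 0 to 3 in Jag1KO + rescue against Jag1WT (0.322% to 9.79%). With the plasmid, DESeq2 called 2 chains beside 12.2% of genes, and the fit of all 18 libraries 2 beside 16.7%. With the siRNA, DESeq2 called 2 beside 0.195%, the fit of all 18 libraries 2 beside 0.0546%, no filter 2 beside 0.0407%, and limma 0 beside 0%.

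With a replicate block, the list genes called higher in Jag1WT numbered 4, up from 2, and no chain count changed. Leaving out 1 library gave 0 to 5 higher and 0 to 2 lower there, and 0 to 5 in either direction with the plasmid (5 without Jag1KO + ctrl replicate 3). DESeq2 called 5 list genes lower with the plasmid, beside 998 over all genes, and 2 higher with the siRNA, beside 22. Of 35 alternatives of the within-group correlations, 34 gave the same reading. The remaining one left out siCtrl, where the highest COL6A1 level was in the replicate with the highest cell cycle mean. Without that group r of the cell cycle mean and COL6A1 was −0.706 (permutation p = 0.0302, not adjusted). Gene lengths of the longest coding transcripts moved each COL6A3 to COL6A1 log2 ratio by less than its SD. Counts over all genes depended on the tool: DESeq2 called 116 higher and 119 lower in Jag1WT against Jag1KO (edgeR 53 and 38, with the replicate block 145 and 138) and 574 and 998 with the plasmid (edgeR 1 and 0). With Jag1KO replicate 1 or Jag1KO + ctrl replicate 3 left out, these counts rose as high as 335 and 600, and 1779 and 1880. The cause was not tested. COL6A2 rests on at most 37 reads in a library.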
